A study of Mus musculus with 2 samples.

Results

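The cells described here were keratinocytes carrying upper hair follicle markers, gated by transcript counts in 2 single-cell RNA libraries of healing mouse dorsal skin. A cell was taken when it held at least 2000 unique molecular identifiers (UMIs, each counted as 1 captured transcript) with at most 15% of them on mitochondrial genes, at least 3 Krt79 UMIs, and at least 10 UMIs summed over Krt5, Krt14 and Krt17. Cells were left out when Elovl3, Fa2h and Far2 summed to 5 UMIs or more, when Mki67 and Top2a summed to more than 2, when any Ptprc UMI was present, or when Col1a1 and Col1a2 summed to 20 or more. The gate held 136 of the 26551 deposited cells, with 70 of 12800 in WT_LW and 66 of 13751 in TLR9agonist_LW. The counts of these 12 genes chose the cells, so their levels in the gate are given as a description only. Krt17, a second marker of the type, counted toward the keratin sum, whereas the third marker, Defb6, played no part in the choice.

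The upper hair follicle comprises the infundibulum, which opens onto the skin surface, the isthmus beneath it, and the junction zone where the sebaceous duct joins. Its keratinocytes renew largely from their own progenitors, apart from the bulge stem cells that build the hair shaft, and they line the canal with a cornified layer of their own. Krt79 encodes a keratin of the infundibulum and sebaceous duct, Krt17 a keratin of the follicle and of injured epidermis, and Defb6 a beta-defensin with antimicrobial activity.

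Both libraries came from male wildtype C57BL/6J mice, young adults by the study's methods, that carried a circular full-thickness dorsal wound 1.8 cm across. WT_LW wounds were given PBS and TLR9agonist_LW wounds the TLR9 agonist ODN2395, on days 0, 3 and 6 after wounding. The labels and the study's methods name PBS for WT_LW, while another passage of the study describes a control oligonucleotide for wounds of this kind, so which control the sequenced mice received is not settled here. The healed wound centre was collected 2 days after the scab detached, and cells of several mice were pooled into 1 droplet library per group. With 1 library a group, no test between groups was possible, no p-value is given, and a difference between the pools of mice or the preparations cannot be told apart from the treatment. All intervals below are 95% intervals and cover counting error only.

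Median UMIs per gate cell were 13017.5 in WT_LW (range 2112 to 47129) and 16805 in TLR9agonist_LW (range 2701 to 50431), the gate totals were 997591 and 1152438 UMIs, and the median mitochondrial share was 4.41% and 2.86%. The libraries shared 47 cell barcodes, of which 0 were in the gate. Collagen transcripts of fibroblasts were present in nearly every gate cell, at a median of 6 Col1a1 plus Col1a2 UMIs in WT_LW and 10 in TLR9agonist_LW. Per 10000 UMIs these medians were 4.59 and 5.76, against 4.36 and 5.67 in Krt79-free keratinocytes and 6.97 and 12.1 in endothelial cells. The collagen limit of the rule cut the gate and the Krt79-free keratinocytes alike. It did not cut endothelial cells, which reached 2130 and 1886 collagen UMIs. These medians were thus partly set by the rule and cannot show where the collagen transcripts came from, which was not tested. Of the gate cells, 13 in WT_LW and 4 in TLR9agonist_LW were among the 10% of cells with the highest doublet scores of their library, and ratios without them are given beside the results that they moved most.

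Most gate cells lay well above the Krt79 limit. Krt79 ranged from 3 to 579 UMIs per cell in WT_LW with a median of 106, and from 3 to 559 with a median of 82 in TLR9agonist_LW. At least 20 Krt79 UMIs were held by 50 and 52 gate cells. Just inside the limit, 2 and 5 cells held 3 UMIs, and just outside it 5 and 9 cells held 2 UMIs. A further 43 and 75 keratinocytes that met every other condition held 1 Krt79 UMI, and 176 and 663 held none. These Krt79-free keratinocytes are the comparison class used below. The collagen limit stood close above the highest gate cells, which held 17 and 19 UMIs, while no gate cell held 4 UMIs of the lipid genes. Before the exclusions, 181 and 110 keratin-bearing cells reached 3 Krt79 UMIs, and the most frequent exclusions were Ptprc (56 and 21 cells) and collagen (50 and 28 cells).

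**Figure D1:**
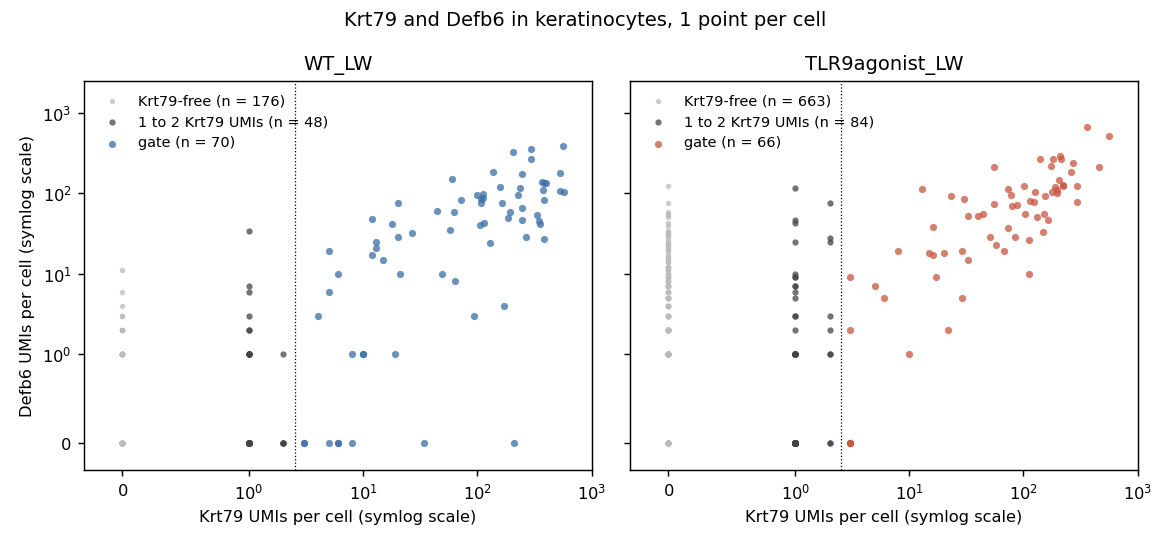
Krt79 UMIs per cell (x axis) against Defb6 UMIs per cell (y axis), both on symmetric log scales, with 1 point per keratinocyte in WT_LW (left) and TLR9agonist_LW (right). The dotted line is the gate limit of 3 Krt79 UMIs; most of the 70 and 66 gate cells stand well to its right and high in Defb6, and most of the 176 and 663 Krt79-free cells lie at or near 0 Defb6 UMIs.

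The identity of the cells was examined with markers that the rule did not use. Defb6 stood at 4845 CPM (UMIs per 1000000 UMIs of the summed cells) in the WT_LW gate, and in TLR9agonist_LW the gate reached 5503 CPM, against 21.0 and 135 CPM in Krt79-free keratinocytes and 7.04 and 13.6 CPM in endothelial cells. After every cell was thinned to 2000 UMIs, Defb6 was detected in 82.9% (72.0 to 90.8) of WT_LW and 87.9% (77.5 to 94.6) of TLR9agonist_LW gate cells, and in 2.72% and 3.83% of endothelial cells, which should lack it. Unthinned, the shares were 88.6% and 95.5% of gate cells at median depths of 13017.5 and 16805 UMIs, and 6.17% and 13.2% of endothelial cells at 7214 and 9531.5 UMIs. The Defb6 level therefore stood far above the free-RNA level in both libraries. Some Krt79-free cells of TLR9agonist_LW also held many Defb6 UMIs.

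Cst6, which encodes cystatin E/M, a protease inhibitor of cornifying epithelia, stood at 14286 and 13622 CPM in the gate and at 27.2 and 30.3 CPM in endothelial cells. Its level varied strongly among gate cells, with medians of 4.69 and 13.1 and maxima of 1480.35 and 2382 UMIs per 10000, and a minimum of 0 in both libraries. Gata6, a transcription factor of the sebaceous duct and upper follicle, was detected in 12.9% (6.05 to 23.0) and 7.58% (2.51 to 16.8) of thinned gate cells against 0.726% and 0.718% of endothelial cells. Lrig1, a marker of the junction zone that restrains EGF receptor signalling, was found in 11.4% and 1.52% of thinned gate cells against 2.00% and 1.67% of endothelial cells. The thinned Lrig1 share of TLR9agonist_LW was thus at the background level. Sox9, a transcription factor of the outer root sheath, was found in 47.1% and 50% of thinned gate cells against 1.09% and 2.87% of endothelial cells. Plet1 and Lgr6, further genes of the isthmus and junction zone, did not set the gate apart: Plet1 stood at 456 and 704 CPM against 237 and 684 CPM in Krt79-free cells, and Lgr6 gave 5 and 2 UMIs in all gate cells together. Defb6, Cst6, Gata6 and Sox9 thus stood above their endothelial levels in the gate, while the isthmus gene Lgr6 was near absent. Sox9 also belongs to the bulge and hair germ list used below. Of other upper follicle genes, Lrig1 was higher and Ly6a lower in the gate than in Krt79-free cells, as given below. Where in the upper follicle the cells belong was not settled by these markers.

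**Figure D2:**
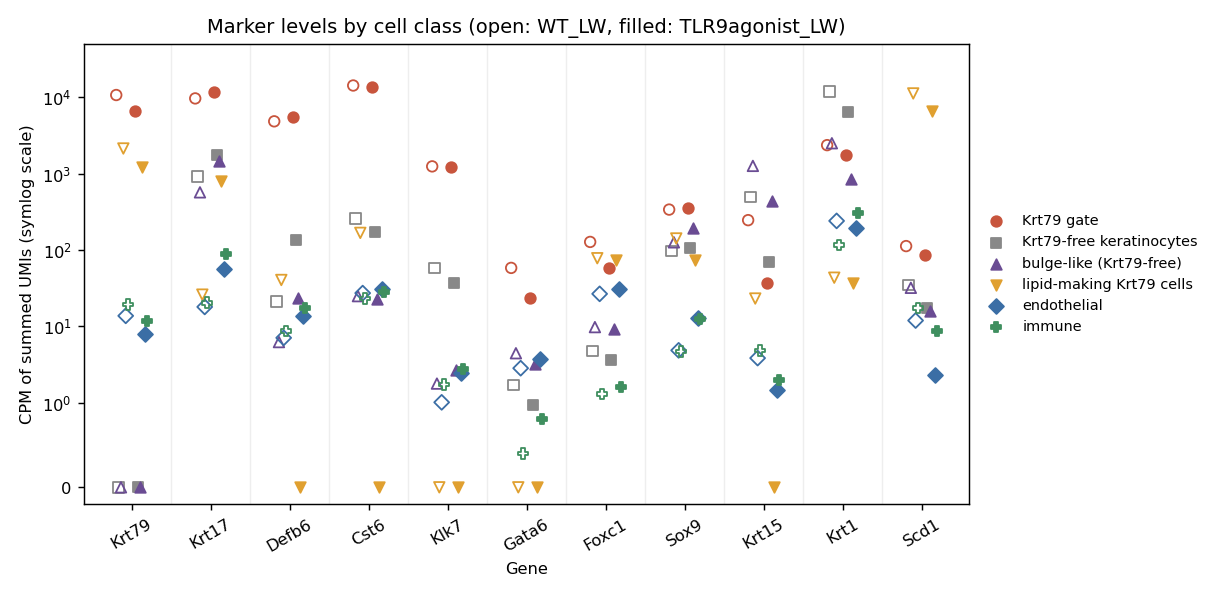
Level of 11 genes (x axis) as CPM of summed UMIs on a symmetric log scale (y axis) in 6 cell classes, with open symbols for WT_LW and filled symbols for TLR9agonist_LW. Krt79 and Krt17 were used by the rule; Defb6, Cst6, Klk7 and Gata6 were highest in the gate, whereas Krt15 was highest in the bulge-like cells (1262 and 433 CPM) and Scd1 in the lipid-making cells (11243 and 6598 CPM).

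Neighbouring classes of the follicle differed from the gate in their own genes. Scd1, a fatty acid desaturase abundant in sebocytes, stood at 112 and 85.9 CPM in the gate, against 11243 and 6598 CPM in the lipid-making Krt79 keratinocytes that Elovl3, Fa2h and Far2 excluded (10 cells and 1 cell). These lipid-making cells held Krt79 at 2134 and 1216 CPM, and Defb6 at 40.4 CPM in WT_LW and 0 UMIs in the 1 cell of TLR9agonist_LW. Krt15, a keratin of bulge stem cells and basal epidermis, stood at 246 and 36.4 CPM in the gate and at 1262 and 433 CPM in bulge-like keratinocytes (55 and 101 cells without Krt79). In those bulge-like cells Defb6 stood at 6.2 and 23.6 CPM, and Cst6 at 24.8 and 23.0 CPM, both near their levels in endothelial cells.

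Set against Krt79-free keratinocytes of the same library, the gate cells had higher levels of Defb6, the protease inhibitor gene Cst6, the lipoxygenase gene Alox12e and the transcription factor genes Gata6 and Foxc1, and lower levels of most basal adhesion and wound-edge genes. Ratios are log2 ratios of CPM centred on the median gene, so that the median over all genes counted is 0, and a gene was called when it differed by at least 2-fold in the same direction in both libraries. Of 7983 genes counted, 213 (2.67%) were at least 2-fold higher and 241 (3.02%) at least 2-fold lower in the gate. Because the cells were chosen by their keratins and the same counts were compared, these ratios describe the gate and were not tested.

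The genes with the largest differences included enzymes, protease inhibitors and transcription factors. Alox12e, an epidermal lipoxygenase, stood at 379 and 121 CPM in the gate and at 1.69 and 0.673 CPM in Krt79-free cells, a log2 ratio of 7.58 in WT_LW and 7.38 in TLR9agonist_LW. For Cst6 the log2 ratios were 5.56 (5.45 to 5.66) and 6.21 (6.15 to 6.27), and for Defb6 7.63 (7.27 to 8.01) and 5.24 (5.17 to 5.32). Gata6 stood at 58.1 and 23.4 CPM in the gate and at 1.69 and 0.972 CPM in Krt79-free cells, a log2 ratio of 4.88 and 4.48. Klk7, a kallikrein protease that cleaves corneodesmosomes as corneocytes are shed, stood at 1244 and 1221 CPM against 57.8 and 37.1 CPM, with ratios of 4.2 and 4.93. Foxc1, a forkhead transcription factor, stood at 127 and 58.1 CPM against 4.73 and 3.59 CPM, with ratios of 4.52 and 3.91. All of these stood higher in the gate than in endothelial cells of their library, where Foxc1 reached 26.6 and 30.3 CPM.

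The remaining genes with the most raised levels were Atp6v1c2, a proton pump subunit (4.19 and 4.54), Chil1, a secreted chitinase-like protein (3.87 and 6.29), Bbox1, an enzyme of carnitine synthesis (3.61 and 3.66), Krt77, a keratin of sweat ducts and suprabasal cells (6.36 and 3.60), Pkib, an inhibitor of protein kinase A (4.43 and 3.52), and Klk6, another kallikrein (3.47 and 6.71). Klk6 rested on few cells, since 77.9% of its gate UMIs in TLR9agonist_LW came from 1 cell, and without the highest doublet scores its ratio in WT_LW turned to -0.94. The other ratios named here kept their sign without those cells, although in WT_LW Cst6 moved from 5.56 to 4.05, Krt77 from 6.36 to 4.16, Klk7 from 4.2 to 3.02 and Chil1 from 3.87 to 2.97.

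Promoter sequences are shown for Krt79, which defines the gate, and for 3 raised genes in which letters bound by GATA or forkhead factors were found, because Gata6 and Foxc1 were themselves raised. Each sequence is the 250 bases before the transcription start from the RefSeq annotation of GRCm38.p6, written 5′ to 3′ on the strand of the gene, with motif matches on either strand in capitals. The first GATA motif searched was AGATAA. The other, which differs from it in the opening letter only, was TGATAA. Promoter windows were used for 11 of 13 genes looked up, namely Krt79 and the 12 genes above, and none was used for Cst6 and Gata6. A GATA motif was found in 4 of the 13 promoter windows of these genes, 1 each for Defb6, Bbox1, Krt77 and Pkib. It was found in 16.6% of 32851 promoter windows of the same length (9.99% for the first motif and 7.94% for the other). The motif searched for forkhead factors was GTAAACA, which was found in 1 of the 13 windows (Bbox1), apart from the GATA match there, and in 3.17% of all windows. A match describes letters only and was not tested for binding. The windows lie at chr15:101940325-101940574 on the minus strand (Krt79), chr8:19225228-19225477 on the plus strand (Defb6), chr15:101869706-101869955 on the minus strand (Krt77) and chr2:110305726-110305975 on the minus strand (Bbox1).
Krt79: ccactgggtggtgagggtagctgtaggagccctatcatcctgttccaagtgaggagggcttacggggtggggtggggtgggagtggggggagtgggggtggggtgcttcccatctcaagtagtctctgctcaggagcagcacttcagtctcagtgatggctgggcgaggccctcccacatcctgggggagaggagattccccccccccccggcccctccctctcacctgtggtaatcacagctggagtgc
Defb6: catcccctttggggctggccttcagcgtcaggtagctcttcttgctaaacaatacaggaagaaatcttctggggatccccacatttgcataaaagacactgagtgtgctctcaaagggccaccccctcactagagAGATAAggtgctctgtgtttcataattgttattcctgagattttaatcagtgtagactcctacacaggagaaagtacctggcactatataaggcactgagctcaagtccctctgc
Krt77: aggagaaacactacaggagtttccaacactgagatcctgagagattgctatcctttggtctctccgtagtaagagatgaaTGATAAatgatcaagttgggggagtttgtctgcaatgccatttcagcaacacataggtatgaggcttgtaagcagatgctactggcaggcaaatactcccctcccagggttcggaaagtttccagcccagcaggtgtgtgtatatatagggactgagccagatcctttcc
Bbox1: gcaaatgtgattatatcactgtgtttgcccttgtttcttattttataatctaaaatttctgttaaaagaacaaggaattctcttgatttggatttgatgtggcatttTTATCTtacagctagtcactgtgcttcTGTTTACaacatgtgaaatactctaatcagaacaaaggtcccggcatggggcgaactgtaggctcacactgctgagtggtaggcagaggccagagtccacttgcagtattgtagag

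Genes of the upper follicle list outside the rule were mostly raised. The list was chosen with earlier results of these data known, so its ratios describe the gate and were not tested. Of its 12 genes 11 were counted in this comparison, and 6 were at least 2-fold higher in both libraries (Defb6, Cst6, Lrig1, Gata6, Nebl and Atp6v1c2), with median log2 ratios of 1.88 and 1.83. Nebl, an actin-binding protein, stood at 140 and 91.1 CPM against 14.2 and 10.9 CPM, and Lrig1 at 93.2 and 26.0 CPM against 21.6 and 6.81 CPM. Sprr1a, a cornified envelope precursor, passed 2-fold only in WT_LW (1.85 and 0.94). Ly6a, the gene of the surface antigen Sca-1, was the 1 list gene called lower, at 55.1 and 35.6 CPM against 234 and 171 CPM. Of the 9 bulge and hair germ genes counted, 4 were higher (Cd200, Nfatc1, Foxc1 and Sox9) and 2 lower (Krt15 and Cdh3). Sox9 stood at 338 and 352 CPM against 96.4 and 106 CPM, ratios of 1.58 and 1.62.

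**Figure D3:**
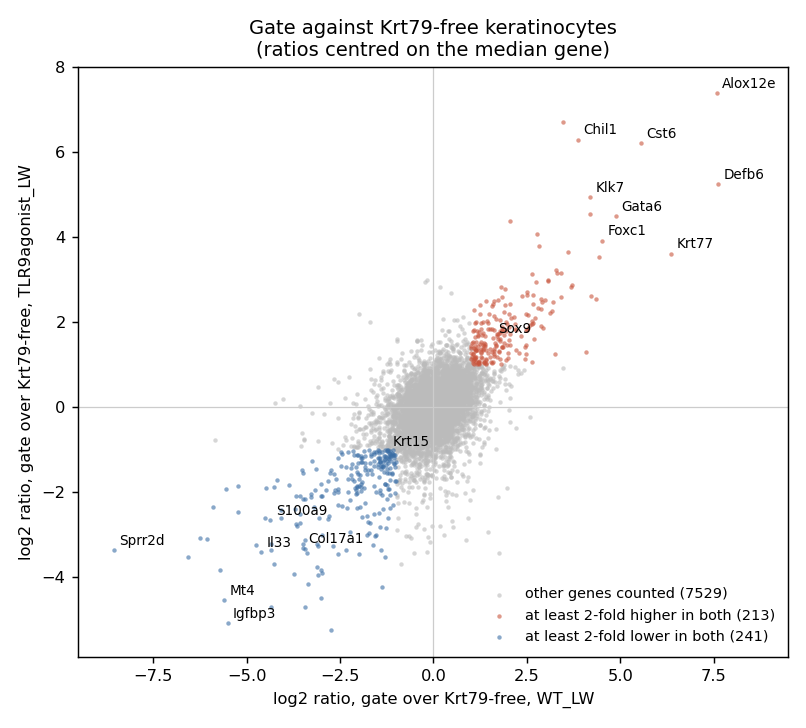
Log2 ratio of the gate over Krt79-free keratinocytes in WT_LW (x axis) and in TLR9agonist_LW (y axis) for 7983 genes, each centred on the median gene, with 1 point per gene. The 213 genes at least 2-fold higher in both libraries and the 241 at least 2-fold lower in both are coloured; Alox12e, Cst6 and Defb6 stand at the upper right and Igfbp3, Mt4 and Sprr2d at the lower left.

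Of 16 suprabasal epidermis genes counted, 3 were higher (Krt77, Ivl and Klk7) and 3 lower (Krt1, Krt10 and Tgm3). Krt1 and Krt10, the keratin pair of interfollicular suprabasal cells, stood at 2362 and 1735 CPM and at 2150 and 2240 CPM in the gate, against 11915 and 6438 CPM and 9249 and 5574 CPM in Krt79-free cells. Ivl, which encodes involucrin of the cornified envelope, stood at 78.2 and 73.8 CPM against 18.6 and 25.8 CPM. Fabp5, an epidermal fatty acid carrier, was lower in the gate (2544 and 5341 CPM against 17384 and 17354 CPM), while the lipid genes Scd1, Acsbg1 and Plin2 were called higher among 9 sebaceous list genes counted. In TLR9agonist_LW Plin2 and Scd1 rested on few cells: 1 cell held 53.1% of the Plin2 gate UMIs, and the 5 cells with few suprabasal transcripts held 90 of 113 Plin2 UMIs and 54 of 99 Scd1 UMIs. Scd1 stood at 112 and 85.9 CPM against 34.5 and 17.4 CPM, with 46.5% of its TLR9agonist_LW gate UMIs in 1 cell.

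Basal attachment genes were low in the gate. Of 15 genes of basal epidermis and the hemidesmosome counted, 10 were at least 2-fold lower in both libraries and 0 higher, with medians of -2.05 and -1.89. Col17a1, the hemidesmosomal collagen, stood at 49.1 and 18.2 CPM in the gate and at 473 and 169 CPM in Krt79-free cells. The integrin chains Itga6, Itgb4, Itga3 and Itgb1 and the laminin chains Lamb3 and Lama3 were all among the genes called lower, Itga6 at 94.2 and 41.7 CPM against 335 and 112 CPM. Krt5, a rule gene, and Krt14, also in the rule, stood at 768 and 327 CPM and at 4606 and 4453 CPM in the gate. Trp63, the transcription factor of basal keratinocytes, was not called (181 and 112 CPM against 231 and 126 CPM).

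Wound-edge genes were lower still, with 12 of 15 counted called lower, 0 higher, and medians of -3.19 and -2.35. S100a8 and S100a9, the calprotectin subunits of activated keratinocytes and neutrophils, were both lower than in Krt79-free cells, S100a9 at 120 and 1513 CPM against 2120 and 8944 CPM. Stfa1, a cystatin, stood at 243 and 767 CPM against 2721 and 3751 CPM, and Krt6b, a keratin of activated epidermis, at 275 and 619 CPM against 2104 and 2247 CPM. Krt6a, its close relative, was not called (1866 and 1684 CPM against 2619 and 2724 CPM). Il33, an alarmin, stood at 5.01 and 46.9 CPM against 105 and 466 CPM, and F3, which encodes tissue factor, at 14 and 58.1 CPM against 232 and 703 CPM. Of 8 antimicrobial genes counted, Defb6 and Lcn2 (lipocalin 2, 74.2 and 90.2 CPM against 10.1 and 40.5 CPM) were higher and S100a8, S100a9 and Slpi lower.

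The lowest levels relative to Krt79-free cells were found for Igfbp3, a binding protein of insulin-like growth factors, at 6.01 and 6.94 CPM against 234 and 220 CPM (-5.51 and -5.09), and for Mt4, a metallothionein of stratified epithelia, at 21.1 and 13.0 CPM against 874 and 283 CPM (-5.60 and -4.55). Ces2g, a carboxylesterase, followed at 8.02 and 3.47 CPM against 90.3 and 49.4 CPM. Sox6, Grip1, Bnc1, Nat8l, Serpinb12, Sprr2d and Ccl21a completed the set, each with 3 UMIs or fewer in the gate of at least 1 library. Ccl21a has near-identical copies among which reads may be split, so its value is uncertain.

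Signalling genes were mixed. Among 17 Wnt pathway genes counted, the ligands Wnt3, Wnt4, Wnt5a, Wnt7b and Wnt10a and the secreted inhibitor Sfrp1 were lower in the gate, and the receptor Fzd7 and the Wnt and BMP antagonist Sostdc1 were higher. Wnt4 stood at 45.1 and 32.1 CPM against 262 and 88.3 CPM. Wnt3 gave 0 UMIs in both gates, which allows up to 3.01 and 2.60 CPM, against 32.8 and 16.2 CPM in Krt79-free cells. Sostdc1 stood at 177 and 67.7 CPM against 56.1 and 15.4 CPM. The ligand Bmp7 and the BMP target Id4 were higher among 12 BMP and Id genes, with Id4 at 45.1 and 22.6 CPM against 6.76 and 3.37 CPM. In glutathione and xenobiotic metabolism, Gstm1, Aldh3a1, Gpx2 and Adh7 were higher and Gsta4, Gsto1 and Akr1b8 lower among 17 counted. Of 20 glycolysis and hypoxia genes, Slc2a1, Pkm and Bnip3 were lower and 0 were higher, with medians of -0.90 and -0.77.

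Within the gate, Cst6 and Defb6 were higher and Krt5 lower in cells with more Krt79, and Gata6 was higher there from few UMIs. Cells of each library were ordered by Krt79 UMIs per 10000 and cut into low, middle and high bands of like size (24, 23 and 23 cells in WT_LW, 22 in each band of TLR9agonist_LW). Bands are ranges of one measure and not types: 4 and 13 cells of WT_LW, and 3 and 12 of TLR9agonist_LW, lay within 20% of the lower and upper cut. The bands were set by Krt79 itself, median depth per band ran from 11489 to 13487.5 UMIs in WT_LW and from 14080 to 18183.5 in TLR9agonist_LW, and the values below are descriptions.

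Cst6 stood at 428, 5155 and 37975 CPM from the low to the high band in WT_LW and at 301, 3083 and 41900 CPM in TLR9agonist_LW. Defb6 stood at 1130, 4447 and 9051 CPM and at 1435, 4269 and 11855 CPM. Krt17, which the rule used, stood at 2443, 7289 and 19550 CPM and at 4274, 9808 and 23029 CPM. Both libraries thus ordered these 3 genes alike along Krt79.

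Klk7 stood at 410, 576 and 2794 CPM in WT_LW and at 217, 1777 and 1798 CPM in TLR9agonist_LW, and Krt77 at 3.01, 8.82 and 682 CPM and at 4.82, 160 and 347 CPM. Gata6 stood at 36.1, 52.9 and 86.1 CPM and at 7.22, 15.2 and 52.5 CPM. These levels rested on 12, 18 and 28 UMIs in WT_LW and 3, 6 and 18 UMIs in TLR9agonist_LW. Sox9 kept a like level in all bands, at 286, 370 and 357 CPM and at 253, 441 and 371 CPM. In the opposite order, Krt5, a rule gene, stood at 1606, 517 and 175 CPM and at 619, 188 and 134 CPM. Krt15 stood at 473, 203 and 58.4 CPM in WT_LW, and at 60.2, 20.3 and 26.3 CPM in TLR9agonist_LW. Not all basal genes had this order, since in WT_LW Trp63 stood at 184, 182 and 178 CPM and Plec at 102, 132 and 203 CPM. Krt1 was lowest in the high band of both libraries, at 3163, 3230 and 636 CPM and at 1657, 2499 and 951 CPM.

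**Figure D4:**
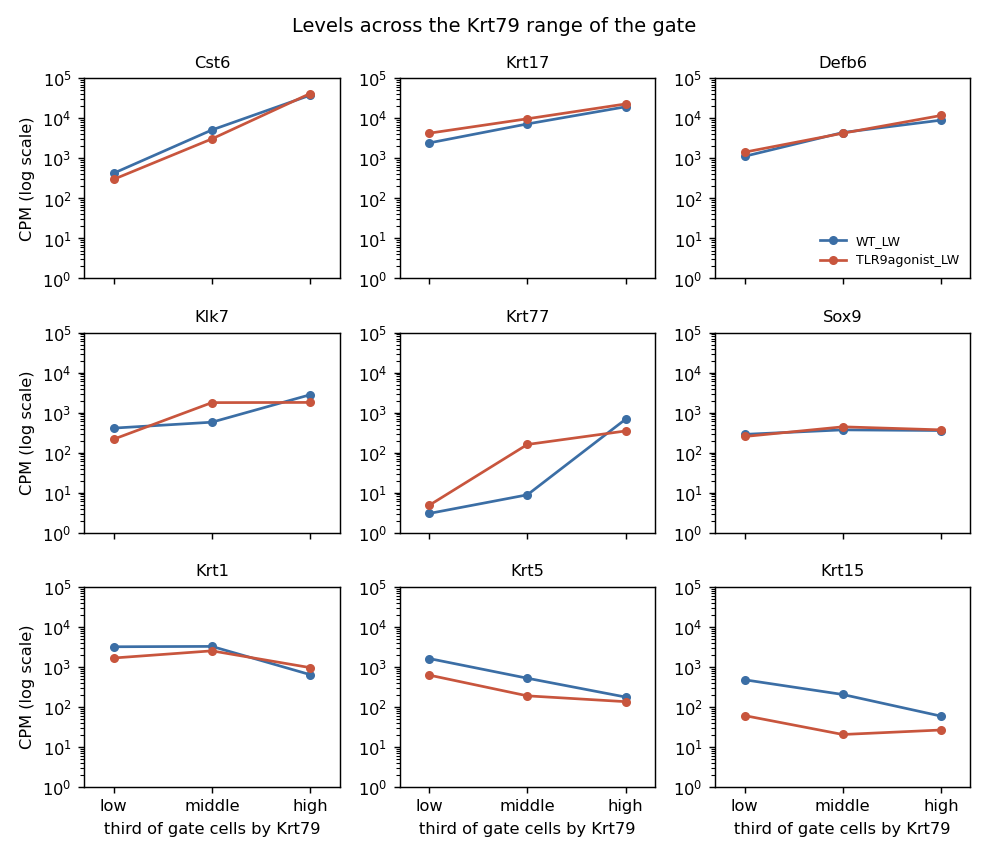
CPM of summed UMIs on a log scale (y axis) in the low, middle and high Krt79 bands of the gate (x axis) for 9 genes, with 1 line per library. Cst6 rises from 428 to 37975 CPM in WT_LW and from 301 to 41900 CPM in TLR9agonist_LW across the bands, Sox9 stays within 253 to 441 CPM, and Krt5 falls from 1606 to 175 CPM and from 619 to 134 CPM.

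Gate cells also ranged widely in suprabasal transcripts, and the libraries differed in the share of cells with many. Cells with at least 10 UMIs summed over Krt1, Krt10 and Krtdap, a gene of differentiating keratinocytes, made up 54.3% of the gate in WT_LW (38 of 70, 41.9 to 66.3) and 92.4% in TLR9agonist_LW (61 of 66, 83.2 to 97.5). Only 1 cell in each library lay within 20% of this cut. The cut is a range of unscaled counts and not a layer. Cells above the cut were deeper than those below it, with median UMIs of 16748 against 10433.5 in WT_LW and 17010 against 13510 in TLR9agonist_LW, and the part of depth in these shares was not tested.

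In WT_LW, Krt15, Col17a1, Prlr and Lrig1 were higher in the cells below the cut. Krt15 stood at 666 CPM below the cut and at 34.6 CPM above it, a log2 ratio above over below of -4.27 (-4.95 to -3.65). Col17a1 stood at 120 and 13.5 CPM, Prlr, the prolactin receptor, at 222 and 31.6 CPM, and Lrig1 at 165 and 57.2 CPM. Other basal and stem cell genes did not follow, with Krt14 at 4788 and 4515 CPM, Trp63 at 195 and 175 CPM, Plec at 126 and 155 CPM and Cd200 at 63.0 and 117 CPM. The follicle transcription factors were present on both sides, Sox9 at 498 and 257 CPM, Gata6 at 99.1 and 37.6 CPM, and Foxc1 at 204 and 88.8 CPM. Cells above the cut had the higher levels of Cst6 (19610.4 against 3666 CPM), Klk7 (1704 against 327 CPM), Krt77 (331 against 18 CPM) and Krt16 (2138 against 105 CPM). Only 5 cells of TLR9agonist_LW lay below the cut, and they gave 8 Krt15 UMIs, so the same comparison was thin there.

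Upper follicle cells were a smaller part of the keratinocytes in TLR9agonist_LW. Their share of all cells was slightly lower there, with an interval that included 0, and depended on the exclusions. The gate made up 0.722% (0.564 to 0.912) of the 9691 cells kept in WT_LW and 0.572% (0.443 to 0.727) of the 11541 cells kept in TLR9agonist_LW, a log2 ratio of -0.34 (-0.84 to 0.17), which includes 0. Of keratinocytes under the same exclusions, it made up 23.8% (70 of 294, 19.1 to 29.1) in WT_LW and 8.12% (66 of 813, 6.33 to 10.2) in TLR9agonist_LW, a log2 ratio of -1.55 (-2.06 to -1.05). With all cells that held the keratin sum as the denominator, before any exclusion, the gate made up 10.1% of 691 and 3.99% of 1653. Of these cells, 181 and 110 held at least 3 Krt79 UMIs before the exclusions, which removed unlike parts of the 2 libraries. The count of Krt79-free keratinocytes, 176 against 663, moved with this difference in share. With the gate limited to cells above the suprabasal cut, the log2 ratio of shares of all cells was 0.43, opposite in sign to -0.34. With the cycling, Ptprc and collagen exclusions dropped, that ratio was -0.75. How the enzymes used for dissociation released each layer in each pool was not tested.

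Between the libraries, gate cells of TLR9agonist_LW had higher levels of most wound-edge genes and of 5 epidermal transcription factor genes, and lower levels of Krt15, Lrig1 and Alox12e. A gene was counted here with at least 100 UMIs over both gates and detection in 10% of the gate cells of 1 library, and called at a centred log2 ratio of at least 1 in size. Of 2552 genes counted, 130 (5.09%) were at least 2-fold higher and 116 (4.55%) at least 2-fold lower in TLR9agonist_LW. The counting interval excluded 0 for all of them, which the minimum of 100 UMIs and the 2-fold limit make near certain. It does not hold the spread between mice or preparations. Centring moved all ratios by 0.24 on the log2 scale, and without it 83 genes were at least 2-fold higher and 244 lower. In Krt79-free keratinocytes, 436 of 7528 genes counted (5.79%) were at least 2-fold higher in TLR9agonist_LW and 214 (2.84%) lower. Of the 130 higher genes of the gate 81 were also higher there, and of the 116 lower genes 20 were also lower. In endothelial cells 99 of the 130 higher genes were counted, and 67 of these were at least 2-fold higher too. No such count was made for the 116 lower genes, and a shift shared by the whole library was not tested.

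Among genes with at least 10 UMIs in each gate, S100a9 and S100a8 had the highest ratios, and S100a9 was found in no larger share of thinned gate cells than of endothelial cells in TLR9agonist_LW. S100a9 stood at 120 CPM in the WT_LW gate and 1513 CPM in the TLR9agonist_LW gate, a log2 ratio of 3.90 (3.63 to 4.18), and S100a8 at 133 and 1475 CPM, a ratio of 3.71. In TLR9agonist_LW 1 cell held 39.2% of the S100a9 UMIs. In thinned cells S100a9 was detected in 11.4% and 57.6% of the gate and in 5.81% and 59.3% of endothelial cells, and unthinned in 28.6% and 100% against 15.8% and 96.4%. The share in the TLR9agonist_LW gate was thus that of background.

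Cnfn, which encodes cornifelin, stood at 12 and 130 CPM (3.68, and 4.71 without the highest doublet scores) and Csta1, a stefin-type protease inhibitor, at 26.1 and 172 CPM (2.97), whereas in Krt79-free keratinocytes their ratios were -0.41 and -0.16. Whether the ratios of the gate and of Krt79-free cells differed beyond the spread between libraries was not tested. Sprr1a stood at 935 and 2820 CPM, a ratio of 1.84 (1.73 to 1.94) that was 3.30 without the highest doublet scores and 1.46 above the suprabasal cut, was detected in 38.6% and 77.3% of thinned gate cells, and stood at 2.82 and 54.0 CPM in endothelial cells. Sprr2h stood at 11 and 101 CPM (3.43), and Sprr2d at 1 and 224 UMIs, a log2 ratio of 7.84 with a wide interval of 5.35 to 13.15. Members of the Sprr2 family are near-identical copies, so the split of reads among them is uncertain. Asprv1, the skin aspartic protease that processes filaggrin, stood at 93.2 and 456 CPM (2.53, and 3.11 without the highest doublet scores), and Casp14, a caspase of cornification, at 105 and 192 CPM (1.11). Ivl, by contrast, was not called, at 78.2 and 73.8 CPM.

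Other genes of the higher set were Serpinb2, a protease inhibitor induced in stress (55.1 and 384 CPM, 3.05), Ccdc71l (39.1 and 267 CPM, 3.02), Prdm1, which encodes the transcriptional repressor BLIMP1 (19 and 121 CPM, 2.92), and the heat shock co-chaperone Dnajb1 (130 and 631 CPM, 2.52). Prdm1 and Dnajb1 were also higher in endothelial cells, at 70.0 and 235 CPM and at 123 and 477 CPM. Cma1, a mast cell chymase, and Tchh, which encodes trichohyalin of the inner root sheath, each came almost wholly from 1 cell (94.1% and 91.2% of TLR9agonist_LW UMIs). Without each gene's highest cell their ratios changed sign, from 3.12 to -0.68 and from 2.71 to -0.36. In all, 7 of the 130 higher genes and 0 of the 116 lower genes had most of their UMIs in 1 cell of the library in which they were higher.

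**Figure D5:**
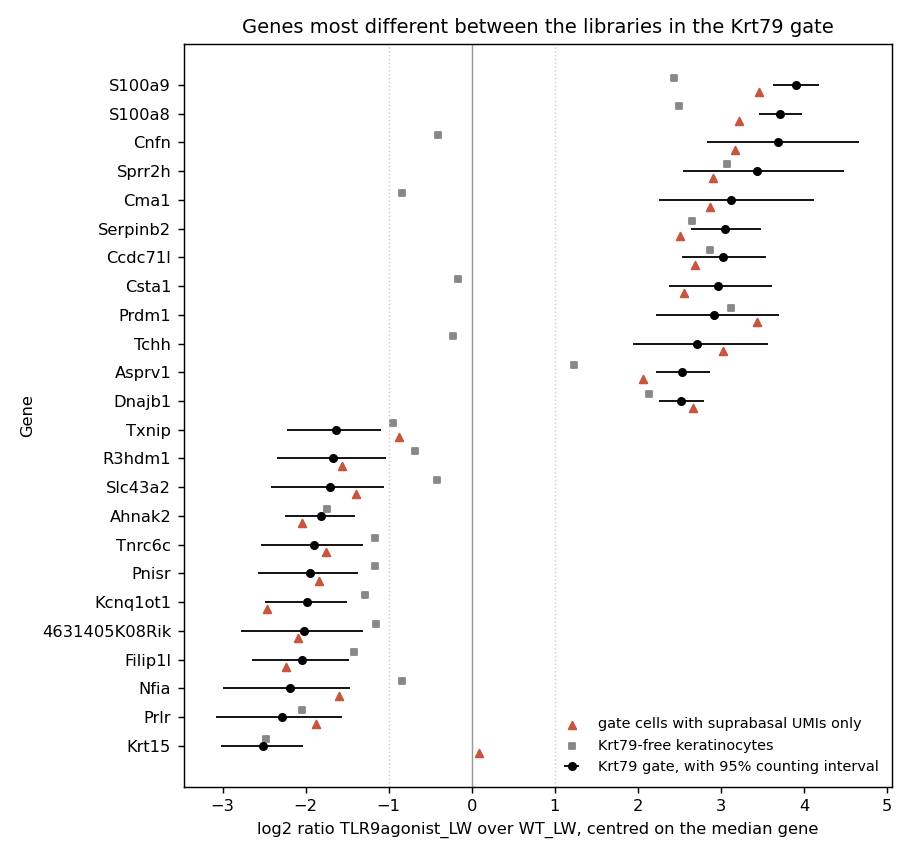
Log2 ratio TLR9agonist_LW over WT_LW, centred on the median gene (x axis), for the 12 most raised and the 12 most lowered genes of the Krt79 gate (y axis); circles with bars are the gate and its 95% counting interval, triangles the gate cells above the suprabasal cut, squares Krt79-free keratinocytes. Krt15 stands at -2.51 in the gate and at 0.08 in cells above the cut, and Cnfn and Csta1 are higher in the gate (3.68 and 2.97) but not in Krt79-free cells (-0.41 and -0.16).

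Krt15 was the most lowered of the genes with at least 10 UMIs in each gate. It stood at 246 CPM in the WT_LW gate and 36.4 CPM in the TLR9agonist_LW gate, a log2 ratio of -2.51 (-3.02 to -2.03), and was detected in 21.4% and 7.58% of thinned gate cells against 1.09% and 0.239% of endothelial cells. The ratio in Krt79-free keratinocytes was -2.48. In gate cells above the suprabasal cut it was 0.08 (34.6 and 31.3 CPM), and below the cut Krt15 stood at 666 CPM in WT_LW and at 119 CPM, from 8 UMIs, in TLR9agonist_LW. Prlr was lower too, at 95.2 and 16.5 CPM (-2.29) and stayed lower above the cut (-1.87). Lrig1 stood at 93.2 and 26.0 CPM (-1.60), and Alox12e at 379 and 121 CPM (-1.41), detected in 37.1% and 18.2% of thinned gate cells. Above the cut, Lrig1 stood at 57.2 and 24.0 CPM and Alox12e at 290 and 128 CPM. Below it, in WT_LW, they stood at 165 and 555 CPM.

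The other most lowered genes were the transcription factor gene Nfia (89.2 and 16.5 CPM, -2.19), Filip1l (135 and 27.8 CPM, -2.04), 4631405K08Rik (87.2 and 18.2 CPM, -2.01), the imprinted long RNA Kcnq1ot1 (182 and 39.0 CPM, -1.98), Pnisr (123 and 26.9 CPM, -1.95), Tnrc6c, a gene of microRNA silencing (115 and 26.0 CPM, -1.90), Ahnak2 (222 and 52.9 CPM, -1.82), Slc43a2, an amino acid carrier (84.2 and 21.7 CPM, -1.71), R3hdm1 (88.2 and 23.4 CPM, -1.67) and Txnip, an inhibitor of thioredoxin (115 and 31.2 CPM, -1.64). Kcnq1ot1, Pnisr, Tnrc6c and R3hdm1 were lower in endothelial cells too, Kcnq1ot1 at 199 and 77.7 CPM and Pnisr at 190 and 71.9 CPM. The median mitochondrial share moved in the same direction between the gates (4.41% and 2.86%), and its part in these ratios was not tested.

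Few genes of the upper follicle list were called between the libraries. Of its 12 genes 9 were counted between libraries, 1 was higher (Sprr1a) and 1 lower (Lrig1), with a median of 0.18 beside 0 for all genes. Defb6 stood at 4845 and 5503 CPM (0.43), Cst6 at 14286 and 13622 CPM (0.18), Plet1 at 456 and 704 CPM (0.87) and Nebl at 140 and 91.1 CPM (-0.38). Gata6 was too low to be counted, with 58 and 27 UMIs. The Cst6 ratio rested on the cells counted: without the highest doublet scores, which removed 13 cells of WT_LW and 4 of TLR9agonist_LW, it was 1.69, and the median of the list moved from 0.18 to 0.81. Krt79 and Krt17, used by the rule, stood at 10718 and 6564 CPM and at 9675 and 11745 CPM.

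Wound-edge genes were the list with the most members called higher, at 9 of 11 counted with 0 lower and a median of 1.91, and 1.57 in Krt79-free keratinocytes. Without the highest doublet scores the median in the gate was 3.07, and in cells above the suprabasal cut it was 1.48. They included Krt6b at 275 and 619 CPM (1.42, with 90.9% of the WT_LW UMIs in 1 cell), Sprr1b at 191 and 675 CPM (2.06), Stfa1 at 243 and 767 CPM (1.91) and the gap junction gene Gjb2 at 32.1 and 74.6 CPM (1.46). The 2 counted members not called were Krt16 at 1460 and 1890 CPM (0.62) and Krt6a at 1866 and 1684 CPM (0.10). Of 14 suprabasal genes, 3 were higher (Lypd3, Casp14 and Grhl3) and 0 lower, with a median of 0.38 that was -0.04 in cells above the suprabasal cut and 1.49 without the highest doublet scores. Of 7 basal genes counted, Dst and Plec, both linkers of the cytoskeleton to hemidesmosomes, were lower and 0 were higher, with a median of -0.45 that was -1.04 without the highest doublet scores and -0.15 above the suprabasal cut. Among 21 epidermal and follicle transcription factors, 5 were higher (Grhl3, Cebpa, Klf4, Ovol1 and Prdm1) and 0 lower. Klf4, a factor of barrier formation, stood at 1033 and 2175 CPM (1.32) and Cebpa, a factor of keratinocyte differentiation, at 99.2 and 202 CPM (1.27).

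Of 9 IL-17 receptors and targets, 4 were higher (the ribonuclease gene Zc3h12a and the chemokines Cxcl1, Cxcl16 and Ccl20) and 0 lower. The list median was 0.57 in the gate and 1.25 in Krt79-free keratinocytes. Cxcl1 stood at 105 and 291 CPM (1.71) in the gate and at 275 and 4700 CPM in endothelial cells. In the EGF family the ligand Epgn (31.1 and 98.9 CPM) and the feedback inhibitor Errfi1 (65.2 and 111 CPM) were higher and Lrig1 lower among 7 counted. The EGF family median was 0.87 in the gate and 0.85 in Krt79-free keratinocytes. Of 19 AP-1 and immediate early genes Fosl1, Hspa1a and Hspa1b were higher, Hspa1a at 287 and 1099 CPM (2.18) and at 727 and 4275 CPM in endothelial cells. Fst, a secreted BMP and activin antagonist, stood at 101 and 424 CPM (2.31), Runx1, a transcription factor of the follicle, at 290 and 107 CPM (-1.20) and Sostdc1 at 177 and 67.7 CPM (-1.15). Among 14 junction genes counted, Cldn4 (28.1 and 127 CPM) and Gjb2 were higher. Fabp5 and Prdm1 were higher among 5 sebaceous genes, Gapdh and Ndrg1 among 12 glycolysis and hypoxia genes, Ugcg among 13 barrier lipid genes, and 0 of 7 glutathione and xenobiotic genes were called in either direction. Ribosomal protein genes lay above the median gene in 22 of 24 cases (median 0.65, and 0.58 in Krt79-free keratinocytes), with 1, Rplp0, past 2-fold.

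Genes of the receptor that the agonist targets and of its known outputs were sparse in these cells. Tlr9 gave 0 UMIs in both gates, which allows up to 3.01 and 2.60 CPM. Of 24 Toll-like receptor and NF-kB genes 4 were counted and 0 called, the highest ratio being that of the inhibitor gene Nfkbia (547 and 905 CPM, 0.97). Of 18 type I interferon genes 2 were counted and 0 called, Ifi27l2a at 128 and 187 CPM (0.78) and Ifitm3 at 392 and 285 CPM (-0.21). Areg, the EGF receptor ligand studied by the authors, stood at 169 and 261 CPM, a ratio of 0.87 (0.59 to 1.15). In WT_LW 1 cell held 68.6% of the Areg UMIs, and without each library's highest cell the ratio was 2.01, while without the highest doublet scores it was -0.015. In thinned cells Areg was detected in 5.71% (1.58 to 14) and 28.8% (18.3 to 41.3) of the gate, against 1.27% and 6.46% of endothelial cells, and unthinned in 22.9% and 65.2% of the gate against 3.81% and 25.6% of endothelial cells.

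Of the other genes the study named, Sox9 stood at 338 and 352 CPM (0.31), Ctnnb1, which encodes beta-catenin, at 348 and 166 CPM (-0.83), the chemokine gene Ccl2 at 76.2 and 95.4 CPM (0.57), and the receptor gene Il17rc at 79.2 and 58.1 CPM (-0.20). Ccl2 stood at 143 and 1695 CPM in endothelial cells, and its ratio was 2.41 above the suprabasal cut. Bhlhe40 (176 and 149 CPM), Zfp750 (133 and 174 CPM) and Grhl1 (102 and 108 CPM) were not called. Cebpa, given above, was the only study gene called. Egfr gave 46 and 52 UMIs and was too low to be counted. Il17ra gave 13 and 14 UMIs, Msx2 1 and 8 UMIs, Twist1 6 and 5 UMIs and Twist2 0 and 1 UMIs. Lgr5, a bulge stem cell gene, gave 0 and 4 UMIs, and Wnt10b and Bmp6 0 UMIs in both gates. At this depth a difference in these low genes was not detectable.

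Markers of other cell types were present at low levels and moved with single cells. The 17 immune markers summed to 823 CPM in WT_LW and 1266 CPM in TLR9agonist_LW, whereas the median cell held 7 and 3.34 UMIs per 10000. Of 8 counted, Cd74, C1qa, Fcer1g and Srgn were called higher, with 83.7%, 86.1%, 77.5% and 46.9% of the TLR9agonist_LW UMIs in 1 cell, and the median of the list changed from 0.94 to -0.67 without each gene's highest cell and to -1.34 without the highest doublet scores. The 14 fibroblast markers summed to 1551 and 1649 CPM, with Dcn called higher (44.1 and 81.6 CPM) and Pdgfra at 0 in TLR9agonist_LW. The 13 endothelial, mural and Schwann markers summed to 175 and 207 CPM, and Selp, at 0 and 79 UMIs, had 96.2% of them in 1 cell. Of the 10 melanocyte, mast cell and neutrophil markers, Dct, Pmel, Tyrp1, Mlana, Cxcr2 and Trem1 were at 0 in both gates.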

How the data were processed

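Single-cell RNA was measured with 10x Genomics droplets in 2 libraries, WT_LW and TLR9agonist_LW. Per the file headers the matrices came from Cell Ranger 4.0.0. They hold counts as whole numbers of UMIs for 27998 genes in barcodes called as cells, which the authors left unnormalized. The submitters' processing notes also name fastp, Seurat and mm9. Gene symbols were used as deposited, and positions are given only for RefSeq promoters of GRCm38.p6.

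The gate and the gene lists were chosen with earlier results of these data known. For each class the UMIs of its cells were added up and scaled to CPM, and log2 ratios were centred on the median gene counted, which moved them by 0.24 in the gate and 0.36 in Krt79-free keratinocytes. Rule genes and 13 mitochondrial genes were not called. Krt79-free keratinocytes met the rule with 0 Krt79 UMIs. Bulge-like, endothelial and immune cells were taken by counts of their markers, and are named only by them. Genes were counted against Krt79-free cells with at least 100 UMIs and detection in 10% of cells. Counts were thinned to 2000 UMIs per cell for detection, so no kept cell was left out. Shares carry Clopper-Pearson intervals, ratios exact intervals given the total count, and a count of 0 a limit of 3 counts, all covering counting error only. Doublets were scored with 2 simulated doublets per cell, 2000 variable genes, 30 components and 50 neighbours, and were kept. The text names the rule genes, the upper follicle list, the 12 highest and 12 lowest ratios of each comparison (with at least 10 UMIs in each library between libraries), called list members and up to 4 further members with the most UMIs, and genes named by the study; Cxcl10 and Selp were added after their values were seen where they fall outside this. Of 456 list symbols 4 did not match 1 identifier. Certain genes are not reported here. Calculations ran in Python 3.11.15 with scipy 1.17.1, numpy 2.4.6, scikit-learn 1.9.0 and pandas 2.3.3, plots with matplotlib 3.10.9, and the ratio code was tested on simulated data.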

Additional observations from a re-analysis of the deposited data

Results flagged for a closer look

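Cxcl10, an interferon-induced chemokine gene, differed in direction between 2 classes of the same libraries. In the upper follicle gate it was lower in TLR9agonist_LW, at 124 and 52 UMIs, a centred log2 ratio of -1.22, whereas in Krt79-free keratinocytes it was higher, at 55.8 and 87.5 CPM, a ratio of 1.01. It was the only gene of 2538 counted in both classes to be called in opposite directions. Single cells held 43.5% and 51.9% of the gate UMIs of the 2 libraries, and with equal weight per cell the gate ratio was -0.32. The difference between the classes was not tested.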

How the results depend on the processing

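With 1 library per group, no replicate could be left out, and no paired analysis was possible because the groups hold 1 library each and no test was made. The settings listed at the start were joined by 3 chosen after seeing the data: cells above the suprabasal cut alone, the cycling, Ptprc and collagen exclusions dropped, and each gene's highest cell left out. Of the recomputed gate shares and counts of called genes, 72 kept their direction and lay near the reported value (counts within 1.5 times, ratios of shares within their counting interval) and 12 moved. Between the libraries, 130 higher and 116 lower genes became 83 and 244 with plain CPM scaling, 243 and 235 with genes of at least 50 UMIs, 36 and 27 with at least 300 UMIs, and 295 and 181 with the exclusions dropped, which left 148 and 105 gate cells. Against Krt79-free keratinocytes, 213 higher and 241 lower genes became 98 and 150 with at least 300 UMIs, and 159 were lower with the exclusions dropped. The log2 ratio of the share of all cells, -0.34, was 0.43 in cells above the suprabasal cut and lay between -0.75 and -0.12 under the other settings. Fewer genes were counted under the higher minimum; the cause of the other changes was not tested. Limiting Col1a1 plus Col1a2 to under 3 UMIs left 6 and 0 gate cells and gave no value.

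Among reported ratios of at least 2-fold, changes of sign touched few named genes. Tchh was at -0.58 with at least 6 Krt79 UMIs and at -0.36 without its highest cell. Cma1 was at -0.61 without the highest doublet scores, -1.42 with the gate set on thinned cells, -0.62 with the exclusions dropped and -0.68 without its highest cell, and the melanocyte, mast cell and neutrophil list followed at -2.11, -0.58 and -0.68 under the last 3 of these. Krt15 was at 0.084 in cells above the suprabasal cut. Against Krt79-free keratinocytes, Klk6 was at -0.94 in WT_LW without the highest doublet scores, and Ccl21a at 0.30 in TLR9agonist_LW with the gate set on thinned cells. Ratios smaller than 2-fold were not followed in this way, and some of them changed sign. Without the highest doublet scores Areg was at -0.015 and the immune marker list at -1.34. The upper follicle list was at -0.21 in cells above the suprabasal cut. Depth limits genes with few UMIs in the gate, among them Gata6, Lgr6 and Tlr9.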
